A study of Homo sapiens with 12 samples.

Results

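Integrins and laminins were described as a family of 38 genes, chosen by symbol: genes of the annotation whose symbol was that of an integrin alpha or beta subunit or of a laminin alpha, beta or gamma chain, leaving out the proteins that bind an integrin subunit from within. They are 38 of the 48114 genes listed in each expression table, and comprise 18 integrin alpha subunits, 8 integrin beta subunits, 11 laminin chains and ITGBL1, a secreted protein with integrin-like repeats that matched the pattern of the symbols but is no receptor subunit. In PANC-1 cells 35 of them averaged 10 normalized counts or more and were tested. The 3 left out were ITGA4, ITGA8 and ITGA9, of which ITGA8 was listed at 0 in all 9 libraries, ITGA4 reached at most 9.46 and ITGA9 at most 15.99 normalized counts.

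Integrins are receptors of 1 alpha and 1 beta subunit that span the plasma membrane and tie the extracellular matrix to the actin or keratin cytoskeleton, and the pairing sets the ligand. Laminins are cross-shaped trimers of an alpha, a beta and a gamma chain that polymerize into the basement membrane, the sheet on which epithelial cells rest and which carcinoma cells cross when they invade. Epithelial cells anchor to laminin through alpha6beta4 in the hemidesmosome and through alpha3beta1, while the receptors for fibronectin and vitronectin, such as alpha5beta1 and alphavbeta3, are common in mesenchymal cells.

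RNA came from 2 established lines of pancreatic ductal adenocarcinoma, PANC-1, which the study uses as a basal-like line, and HPAF-II, which it uses as a classical line. PANC-1 cells were harvested 48 h after transfection with control siRNA (siCtrl), with 40 nM siRNA to QKI (siQKI) or with 40 nM siRNA to RBFOX2 (siRBFOX2), and HPAF-II cells were harvested 48 h after transfection with siCtrl, with 3 libraries in each of the 4 groups. QKI and RBFOX2 are RNA-binding proteins that act in splicing, and QKI also acts on the stability of messenger RNA. Values here are totals per gene, so a change of splice forms at an unchanged total is not seen. The study lists pools of siRNAs for the control and for QKI. Knockdown was transient and partial, every group had been transfected, and no group of untransfected cells was analysed here. The labels do not say whether libraries of a group came from separate cultures, so p-values measure the spread between these libraries, which may be technical.

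The normalized counts, which the authors had divided by a size factor per library, were multiples of a step that is not 1 read, so the depth in reads is unknown, and steps summed to 292248837 to 376192091 per library of PANC-1 and to 226697015 to 309720537 per library of HPAF-II. QKI was at 25909, 24539 and 26150.4 normalized counts in the siCtrl libraries, 4629.7, 5453 and 5020.2 in siQKI and 26742, 28333 and 28973 in siRBFOX2 libraries, and fell to 19.7% of siCtrl in siQKI (log2 fold change -2.34, SE 0.057, adjusted p = 9.15e-13). RBFOX2 was at 15355, 15508 and 15424 normalized counts in the siCtrl libraries, 12629, 12778 and 12520.0 in siQKI and 2403, 2171 and 1712 in siRBFOX2 libraries, and fell to 13.6% of siCtrl in siRBFOX2 (log2 fold change -2.89, SE 0.089, adjusted p = 4.7e-11). In siQKI libraries RBFOX2 was lower too (log2 fold change -0.29, SE 0.089, adjusted p = 0.0207). Keratins and other epithelial genes were abundant in both lines, with 6 epithelial markers summing to 2732 to 2842 rescaled counts (values brought to a total of 1000000 per library) in the siCtrl libraries of PANC-1 and 10388 to 10971 in those of HPAF-II. Of 5 leukocyte markers PTPRC was listed at 0 in both lines. The sum of the 5 was 144 to 167 rescaled counts in PANC-1, nearly all of it from CD68, and 75.8 to 106 in HPAF-II. Within PANC-1 the epithelial sum was 925586 to 989454 normalized counts in siCtrl, 893443 to 965522 in siQKI and 762823 to 820441 in siRBFOX2 libraries. Summed over 6 fibroblast markers, the level in PANC-1 was 4286 to 4635 normalized counts in siCtrl, 8538 to 9823 in siQKI and 5252 to 7482 in siRBFOX2 libraries, mostly from COL1A1, with 3 of the 6 (COL1A2, DCN and LUM) at 0 in siCtrl. Between the lines, the fibroblast sum was 12.4 to 13.7 rescaled counts in the siCtrl libraries of PANC-1 and 19.9 to 24.2 in those of HPAF-II. The part of these marker genes in the results on integrins and laminins was not tested. In bulk RNA, a change in the number of cells that express a gene and a change in RNA per cell cannot be told apart.

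Short stretches of the transcripts of 6 members are shown because they hold the hexamer that QKI (ACTAAC) or RBFOX2 (TGCATG) is known to bind, within 500 bases after the stop codon, in genes whose level passed the test in the knockdown of that factor. They were chosen after their values were seen. Each is 30 bases of the 3′ untranslated region, read 5′ to 3′ on the strand of the transcript from GENCODE release 29 (hg38), with the hexamer in capitals, and each lies within 1 exon.
ITGA2: tgtcgtaggtaaACTAACctggtattttaa
LAMA4: ttgaagagacttACTAACttacatataatc
LAMB4: agtaagtactctACTAACtaataatcattt
ITGA3: catcacggatggTGCATGggctcgccgtgt
LAMB2: cactgccccacaTGCATGtctgcctatgca
LAMC3: cacacgtgagggTGCATGtctgtgtgtatg
The first 3 hold the QKI hexamer, at chr5:53090699-53090728 on the plus strand for ITGA2, chr6:112108987-112109016 on the minus strand for LAMA4 and chr7:108023710-108023739 on the minus strand for LAMB4. The other 3 hold the RBFOX2 hexamer, at chr17:50089537-50089566 on the plus strand for ITGA3, chr3:49121166-49121195 on the minus strand for LAMB2 and chr9:131092060-131092089 on the plus strand for LAMC3. Only the transcript strand was searched, and neither hexamer overlaps the other. Among all genes with at least 500 bases after the stop codon, 5.70% held ACTAAC and 14.4% held TGCATG in that window. Of the 21 members with a window of that length, 4 held ACTAAC (ITGA2, ITGB6, LAMA4 and LAMC1) and 4 held TGCATG (ITGA3, ITGAV, ITGB6 and LAMC3), while LAMB4, LAMB2, ITGB2 and LAMA2 held a match in a shorter untranslated region. A match describes the letters of the transcript and shows neither binding nor an effect.

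In PANC-1 cells the family did not move as a block after QKI knockdown. Against siCtrl, 19 of the 35 members passed the threshold (limma, adjusted p under 0.05), 9 higher and 10 lower in siQKI, which is 54.3% of them beside 33% of all genes tested (14.9% higher and 18.1% lower). Members were also more abundant than most genes, with a median of 2437 normalized counts over the 9 libraries against 906 for all genes tested. Among genes with a mean of at least 1000, 15 of 22 members passed (68.2%) beside 54% of all such genes. Most of the changes were small: 7 members passed with a change of at least 1.5-fold, 3 higher (ITGB8, ITGA2B and ITGB3) and 4 lower (LAMB4, ITGA2, LAMB3 and ITGA10), beside 9.03% of all genes (5.87% higher and 3.16% lower). The libraries of both groups did not overlap for 24 of the 35, beside 44.7% of all genes. After rescaling to the upper quartile of each library, 58% of all calls were higher against 45.2% with the deposited scaling, and 12 members were higher and 9 lower.

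RBFOX2 knockdown moved fewer members. Against the same siCtrl libraries 13 of the 35 passed, 7 higher and 6 lower in siRBFOX2, which is 37.1% beside 26.5% of all genes tested (12% higher and 14.5% lower), and among genes with a mean of at least 1000 it was 13 of 22 (59.1%) beside 45%. Only ITGA2, ITGA10 and LAMA3 passed with a change of at least 1.5-fold, beside 5.71% of all genes (4.09% higher and 1.62% lower). The libraries were apart for 18 of the 35, beside 37.9% of all genes. Laminin chains made up 5 of the 7 members that were higher, and integrin alpha subunits 4 of the 6 that were lower. Of the 35 members, 10 passed in both knockdowns, beside 17.9% of all genes, 9 in siQKI alone, 3 in siRBFOX2 alone and 13 in neither. Both comparisons rest on the same 3 siCtrl libraries, so a control library that deviates enters both.

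**Figure D1:**
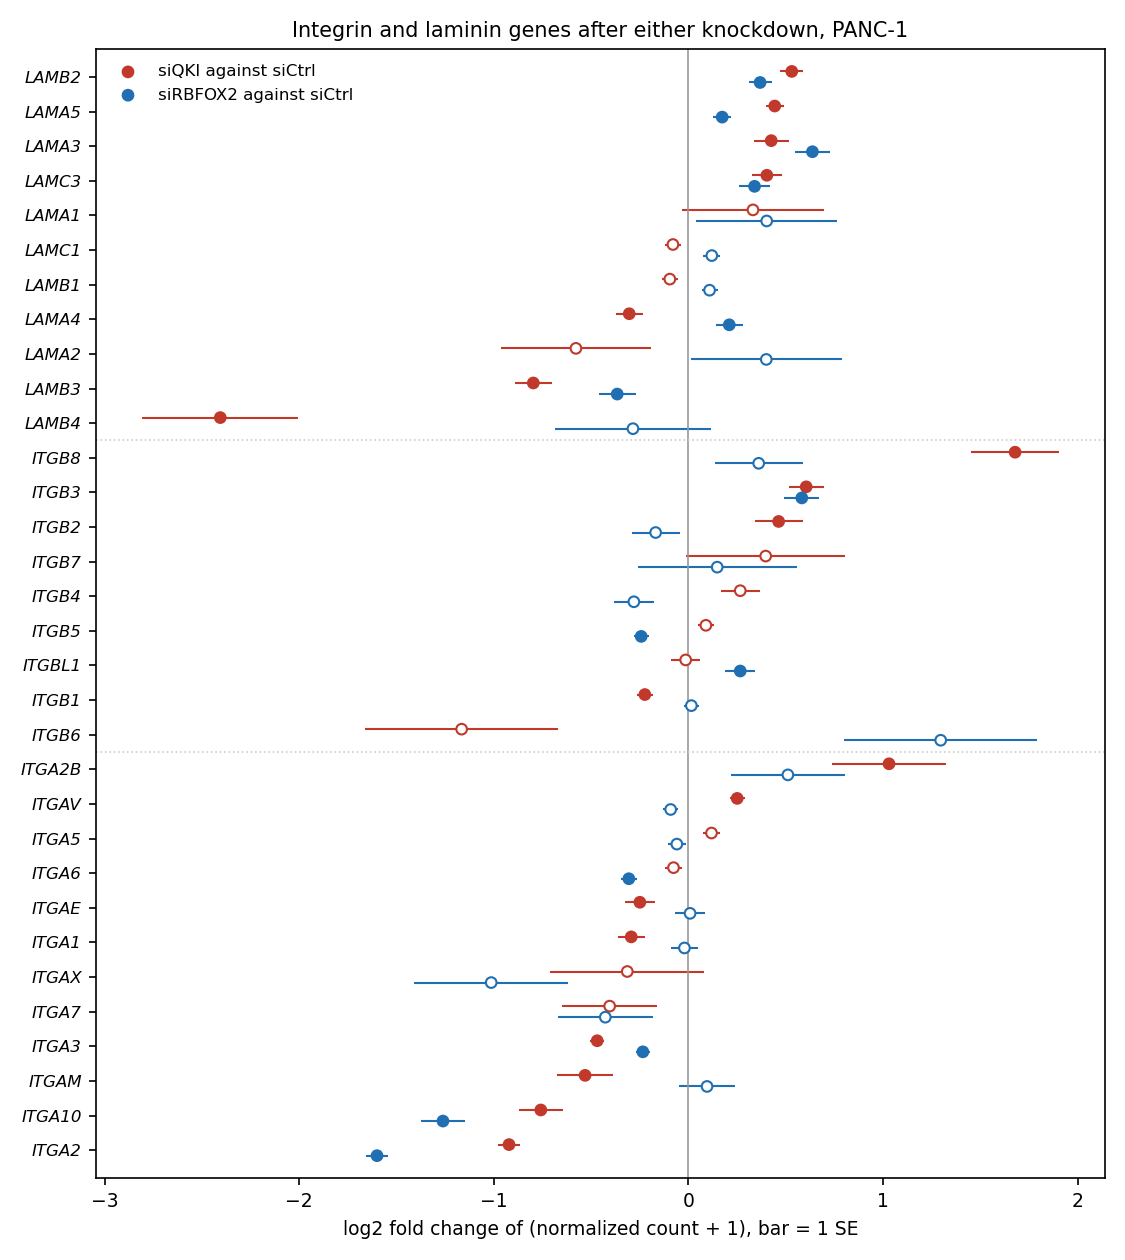
log2 fold change of (normalized count + 1) against siCtrl for 32 members in siQKI (red) and siRBFOX2 (blue), grouped as laminins, beta subunits with ITGBL1, and alpha subunits from top to bottom. Bars are 1 SE and filled circles passed an adjusted p under 0.05, and 3 members with an SE over 1 are left out. ITGA2 and ITGA10 lie farthest to the left among filled alpha subunits in both knockdowns, and LAMB4 and ITGB8 lie far from 0 in siQKI alone.

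The largest falls among integrin subunits past the threshold in both knockdowns were those of ITGA2 and ITGA10, both subunits of collagen receptors. ITGA2 (GSHG0034319, chr5:52989337-53094779 on hg38), the alpha subunit of the main epithelial collagen receptor alpha2beta1, was at 49488, 48989 and 56320.2 normalized counts in the siCtrl libraries, 25188, 28162 and 28335 in siQKI and 16447, 17467 and 17071 in siRBFOX2 libraries. The 3 groups did not overlap, with siCtrl highest, siQKI in between and siRBFOX2 lowest. ITGA2 fell to 52.8% of siCtrl in siQKI (log2 fold change -0.92, SE 0.058, adjusted p = 1.84e-08) and to 32.9% in siRBFOX2 (log2 fold change -1.60, SE 0.058, adjusted p = 1.1e-10), and the direct contrast of siQKI with siRBFOX2 also passed (log2 fold change 0.68, SE 0.058, adjusted p = 9.68e-07). Its ACTAAC, shown above, starts 112 bases after the stop codon.

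ITGA10 (GSHG0002882, chr1:145891208-145910111), a collagen receptor subunit best known from cartilage, was at 1852, 1739 and 1573 normalized counts in the siCtrl libraries, 928, 1131 and 996 in siQKI and 733, 677 and 740.1 in siRBFOX2 libraries. Here again the 3 groups were apart in the same order. ITGA10 fell to 59.2% in siQKI (log2 fold change -0.76, SE 0.11, adjusted p = 9.5e-05) and to 41.6% in siRBFOX2 (log2 fold change -1.26, SE 0.11, adjusted p = 1.37e-06), and siQKI was higher than siRBFOX2 (log2 fold change 0.50, SE 0.11, adjusted p = 0.00465). ITGA1, the other widely expressed collagen receptor subunit, which the annotation counts together with the gene PELO that lies inside it, was at 9829, 11229.7 and 10886 normalized counts in the siCtrl libraries, 8857, 9043 and 8149.9 in siQKI and 10560.2, 9561 and 11415 in siRBFOX2 libraries. It was lower in siQKI, with no overlap between those groups (log2 fold change -0.29, SE 0.069, adjusted p = 0.0039), and its value in siRBFOX2 did not pass (-0.02, adjusted p = 0.874). ITGA1 was also lower in siQKI than in siRBFOX2 (-0.27, adjusted p = 0.00971), a call that was lost under 3 alternatives (adjusted p = 0.082 without a mean-variance trend, 0.0529 without siQKI replicate 3 and 0.0524 without siRBFOX2 replicate 3). ITGA11, the fibroblast collagen receptor subunit, ranged from 0 to 175 normalized counts over the 9 libraries and passed in no contrast. It was at 0, 32.0 and 16.1 in siCtrl and at 20.5, 175 and 73.4 in siQKI libraries, which overlapped (log2 fold change 2.99, SE 1.48, adjusted p = 0.143). Only with the replicate block was it called higher in siQKI (adjusted p = 0.0219).

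Among the laminin receptors, ITGA3 and ITGA6 were lower in 1 or both knockdowns by small amounts. ITGA3 (GSHG0018336, chr17:50055966-50090482), the alpha subunit of alpha3beta1 and the most abundant alpha subunit per kb of exon in PANC-1, was at 385260.0, 378199 and 393233 normalized counts in the siCtrl libraries, 279654, 282486 and 273861 in siQKI and 333155, 317630.0 and 333106 in siRBFOX2 libraries. No library of a group reached those of another, with siCtrl above siRBFOX2 and siRBFOX2 above siQKI. The falls were to 72.3% in siQKI (log2 fold change -0.47, SE 0.036, adjusted p = 1.28e-07) and to 85.1% in siRBFOX2 (log2 fold change -0.23, SE 0.036, adjusted p = 0.000186), and siQKI was lower than siRBFOX2 (log2 fold change -0.23, SE 0.036, adjusted p = 0.000207).

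ITGA6, which pairs with ITGB1 or, in the hemidesmosome, with ITGB4, was at 65988, 65526 and 71108 normalized counts in the siCtrl libraries, 61658, 65118 and 65356 in siQKI and 53177, 55426 and 55244 in siRBFOX2 libraries. It was lower in siRBFOX2 (log2 fold change -0.31, SE 0.041, adjusted p = 6.68e-05), while siQKI did not pass (-0.076, adjusted p = 0.186) although its libraries all lay below those of siCtrl, and the contrast between the knockdowns passed (0.23, adjusted p = 0.000876). ITGA7, the muscle laminin receptor subunit, had overlapping groups between 365 and 964 normalized counts and passed in no contrast.

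Among the subunits that recognize the RGD tripeptide, ITGAV (GSHG0024633, chr2:186590056-186680901), the partner of ITGB1, ITGB3, ITGB5, ITGB6 and ITGB8, was higher in siQKI. It was at 52499, 53444 and 55897 normalized counts in the siCtrl libraries, 63761, 62948 and 65846 in siQKI and 49873, 52323 and 49752 in siRBFOX2 libraries, and the siQKI libraries lay above all others (log2 fold change 0.25, SE 0.039, adjusted p = 0.000126). In siRBFOX2 ITGAV did not pass (-0.091, adjusted p = 0.102), and siQKI was higher than siRBFOX2 (log2 fold change 0.34, SE 0.039, adjusted p = 1.48e-05). ITGA5, which forms the fibronectin receptor with ITGB1, passed in neither knockdown (0.12, adjusted p = 0.0614 in siQKI and -0.059, adjusted p = 0.401 in siRBFOX2, as log2 fold changes) but was higher in siQKI than in siRBFOX2 (0.18, adjusted p = 0.0112), a call lost in 1 alternative (adjusted p = 0.0866 without a mean-variance trend). ITGA5 passed as higher in siQKI under 4 alternatives (adjusted p between 0.00442 and 0.0482: upper-quartile rescaling, a fit of only the groups compared, and without siCtrl replicate 3 or siRBFOX2 replicate 2). ITGA2B, the alpha subunit of the platelet fibrinogen receptor, was at 323, 357 and 298 normalized counts in the siCtrl libraries, 686, 460.5 and 930.0 in siQKI and 352, 792 and 357 in siRBFOX2 libraries. It was higher in siQKI (log2 fold change 1.03, SE 0.29, adjusted p = 0.0135) with a wide spread between the siQKI libraries, and the call was lost under 2 alternatives (adjusted p = 0.0872 without a mean-variance trend and 0.0771 without siQKI replicate 3). Without siRBFOX2 replicate 2 it was also higher in siQKI than in siRBFOX2 (adjusted p = 0.0193). The platelet and endothelial markers PF4, GP9, VWF, PECAM1 and CDH5 summed to at most 70.7 normalized counts in any PANC-1 library.

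Of the 5 alpha subunits that are best known from leukocytes, ITGAM and ITGAE were lower in siQKI and none passed in siRBFOX2, beside 18.1% and 14.5% of all genes lower in siQKI and in siRBFOX2. ITGAM, a subunit of complement receptor 3, was at 634, 727 and 641 normalized counts in the siCtrl libraries, 488, 400.3 and 500.1 in siQKI and 694, 724 and 717 in siRBFOX2 libraries, and its siQKI libraries lay below all others (log2 fold change -0.53, SE 0.14, adjusted p = 0.00911, and log2 fold change -0.63, SE 0.14, adjusted p = 0.00483 against siRBFOX2). ITGAE, which binds E-cadherin with ITGB7, had a smaller fall in siQKI (log2 fold change -0.25, SE 0.079, adjusted p = 0.0237) and was also lower than in siRBFOX2 (-0.26, adjusted p = 0.0285). The first of these calls was lost under 4 alternatives (adjusted p = 0.0866 after upper-quartile rescaling, 0.104 without siCtrl replicate 2, 0.067 without siQKI replicate 2 and 0.0649 without siQKI replicate 3), and the second under 6 (adjusted p = 0.0523 after upper-quartile rescaling, 0.0507 without siQKI replicate 1, 0.0808 without siQKI replicate 2, 0.0787 without siQKI replicate 3, 0.092 without siRBFOX2 replicate 1 and 0.0805 without siRBFOX2 replicate 2). ITGAX, ITGAL and ITGAD passed in no contrast and reached at most 166, 79.5 and 88.3 normalized counts. In siRBFOX2 ITGAD passed as higher without siCtrl replicate 3 (adjusted p = 0.0407) and ITGAX as lower without siRBFOX2 replicate 3 (adjusted p = 0.0347). Of 5 leukocyte markers PTPRC and CD3E were listed at 0 in siCtrl, and the sum, nearly all of it from CD68, was 50133 to 56726 normalized counts in siCtrl, 38125 to 39069.9 in siQKI and 42440.5 to 44653 in siRBFOX2 libraries.

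**Figure D2:**
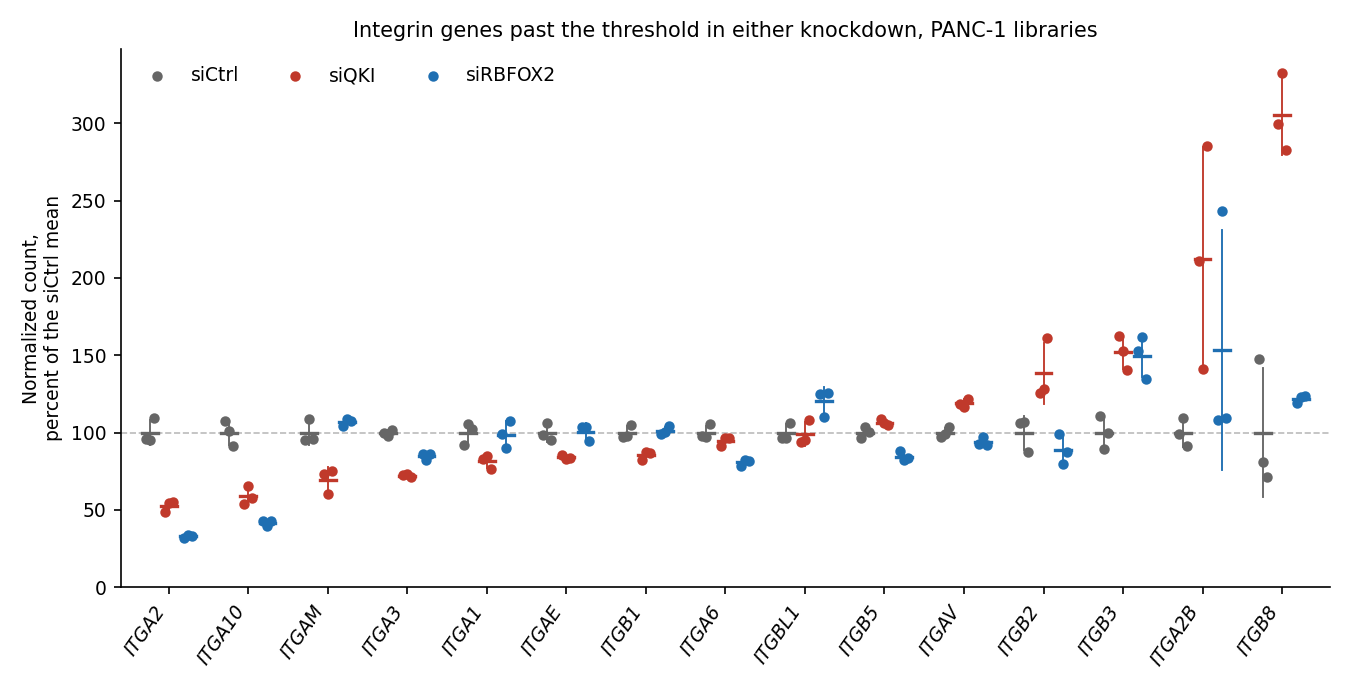
Normalized counts of the 15 integrin genes that passed in either knockdown, as a percentage of the siCtrl mean, in each PANC-1 library (points), with the group mean (horizontal bar) and SD (vertical bar), ordered by the fold change in siQKI. The siRBFOX2 points of ITGA2 lie near 33% and those of ITGA10 near 42%, and the siQKI points of ITGB8 lie above all its other points.

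The beta subunits that pair with ITGAV did not move together. ITGB8 (GSHG0039242, chr7:20330702-20415754), whose pair with ITGAV binds latent TGF-beta, was at 457, 249.9 and 220.3 normalized counts in the siCtrl libraries, 926, 1028 and 873 in siQKI and 368, 379.6 and 383 in siRBFOX2 libraries. All siQKI libraries lay above all others, and siCtrl replicate 1 was the highest of the controls. ITGB8 was 3.20-fold higher in siQKI than in siCtrl (log2 fold change 1.68, SE 0.23, adjusted p = 3.49e-05), did not pass in siRBFOX2 (0.36, adjusted p = 0.279), and was higher in siQKI than in siRBFOX2 (log2 fold change 1.32, SE 0.23, adjusted p = 0.000558). Without siCtrl replicate 1 ITGB8 also passed as higher in siRBFOX2 (log2 fold change 0.68, adjusted p = 0.0113).

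ITGB3 (GSHG0047691, chr17:47253827-47323147), the beta subunit of the vitronectin receptor alphavbeta3, was at 3163, 2563 and 2850.3 normalized counts in the siCtrl libraries, 4643, 4364 and 4018 in siQKI and 4368, 4625 and 3846 in siRBFOX2 libraries. It was 1.52-fold higher in siQKI (log2 fold change 0.61, SE 0.089, adjusted p = 8.5e-05) and 1.498-fold higher in siRBFOX2 (log2 fold change 0.58, SE 0.089, adjusted p = 0.000195), with both groups above siCtrl. The contrast between the knockdowns did not pass (log2 fold change 0.023, SE 0.089, adjusted p = 0.903). GENCODE places 51.6% of the exonic bases of ITGB3 also in a second gene model on the same strand, so its reads may be shared. Whether the annotation used for counting holds that model was not checked. ITGB5, the other vitronectin receptor subunit, was at 76972, 82798 and 80172 normalized counts in the siCtrl libraries, 86795, 84781 and 83757 in siQKI and 70230.1, 65851 and 66756 in siRBFOX2 libraries. It was lower in siRBFOX2 (log2 fold change -0.24, SE 0.039, adjusted p = 0.000307) and did not pass in siQKI (0.09, adjusted p = 0.0947), although its siQKI libraries all lay above those of siCtrl and it passed after upper-quartile rescaling (adjusted p = 0.00524), and siQKI was higher than siRBFOX2 (0.33, adjusted p = 2.12e-05).

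ITGB6, the epithelial partner of ITGAV that activates latent TGF-beta, was scarce in PANC-1, at 97.6, 45.0 and 60.4 normalized counts in the siCtrl libraries, 51.3, 15.7 and 27.3 in siQKI and 176, 175 and 132 in siRBFOX2 libraries. Neither knockdown passed against siCtrl (-1.16, adjusted p = 0.0875 in siQKI and 1.30, adjusted p = 0.0681 in siRBFOX2, as log2 fold changes), but siQKI was lower than siRBFOX2 without overlap (log2 fold change -2.46, SE 0.50, adjusted p = 0.00205). ITGB6 passed as lower in siQKI without siQKI replicate 1 (log2 fold change -1.59, adjusted p = 0.0297), and as higher in siRBFOX2 under 4 alternatives (adjusted p between 0.0287 and 0.0485: a pseudocount of 10, a fit of only the groups compared, and without siQKI replicate 1 or siQKI replicate 2). In GENCODE a gene model on the same strand covers 20.6% of its exonic bases.

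ITGB1, the subunit with the most alpha partners and the most abundant beta subunit per kb of exon in PANC-1, was at 250851, 252093 and 269362 normalized counts in the siCtrl libraries, 212467, 225088 and 223790.0 in siQKI and 254821, 257799 and 267787 in siRBFOX2 libraries. It was slightly lower in siQKI (log2 fold change -0.22, SE 0.04, adjusted p = 0.000462), was not called in siRBFOX2 (0.015, adjusted p = 0.827), and was lower in siQKI than in siRBFOX2 (log2 fold change -0.24, SE 0.04, adjusted p = 0.000473). ITGB4, the hemidesmosomal subunit with a long cytoplasmic tail that binds plectin, was at 7256, 7404 and 6290.1 normalized counts in the siCtrl libraries, 9347, 7569.8 and 8319 in siQKI and 5871, 6614 and 4863 in siRBFOX2 libraries. It passed in neither knockdown (0.27, adjusted p = 0.057 in siQKI and -0.28, adjusted p = 0.055 in siRBFOX2, as log2 fold changes), and was higher in siQKI than in siRBFOX2 (log2 fold change 0.55, SE 0.10, adjusted p = 0.00108). ITGB4 passed as higher in siQKI under 7 alternatives (adjusted p between 0.0197 and 0.0499: the replicate block, upper-quartile rescaling, a minimum mean of 50, a fit of only the groups compared, and without siQKI replicate 2, siRBFOX2 replicate 2 or siRBFOX2 replicate 3). It passed as lower in siRBFOX2 under 6 (adjusted p between 0.0127 and 0.0495: the replicate block, a pseudocount of 10, a minimum mean of 50, and without siCtrl replicate 3, siQKI replicate 1 or siRBFOX2 replicate 2). With the replicate block the adjusted p was 0.0323 in siQKI and 0.0315 in siRBFOX2.

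ITGB2, the common beta subunit of leukocyte integrins, was at 1481, 1493 and 1220.4 normalized counts in the siCtrl libraries, 1755, 1793 and 2252 in siQKI and 1389, 1116 and 1227 in siRBFOX2 libraries. It was higher in siQKI than in siCtrl (log2 fold change 0.46, SE 0.12, adjusted p = 0.00864), a call lost without 1 library (adjusted p = 0.0561 without siQKI replicate 3), and higher than in siRBFOX2 (0.63, adjusted p = 0.00161). ITGB7, which in GENCODE shares 42.1% of its exonic bases with ZNF740 on the opposite strand, ranged from 68.0 to 178 normalized counts and passed in no contrast. The beta-like ITGBL1 was higher in siRBFOX2 than in siCtrl (log2 fold change 0.27, SE 0.076, adjusted p = 0.0166) and than in siQKI (-0.28 for siQKI against siRBFOX2, adjusted p = 0.0147), but other GENCODE gene models cover 70.5% of its exonic bases. Its rise was lost under 5 alternatives (adjusted p = 0.068 without a mean-variance trend, 0.058 without siCtrl replicate 1, 0.0602 without siCtrl replicate 2, 0.0664 without siRBFOX2 replicate 1 and 0.063 without siRBFOX2 replicate 3), and the contrast between the knockdowns also under 5 (adjusted p = 0.0687 without a mean-variance trend, 0.0625 without siQKI replicate 1, 0.0632 without siQKI replicate 2, 0.0606 without siRBFOX2 replicate 1 and 0.0623 without siRBFOX2 replicate 3).

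Of the 11 laminin chains, 7 passed in siQKI, 4 higher (LAMB2, LAMA5, LAMA3 and LAMC3) and 3 lower (LAMB4, LAMB3 and LAMA4), and 6 passed in siRBFOX2, 5 higher (LAMA3, LAMB2, LAMC3, LAMA4 and LAMA5) and LAMB3 lower. These counts stand beside 33% of all genes tested that passed in siQKI (14.9% higher and 18.1% lower) and 26.5% in siRBFOX2 (12% higher and 14.5% lower). LAMB1, LAMC1, LAMA1 and LAMA2 passed against siCtrl in neither knockdown. The median log2 fold change of the 11 chains was -0.079 in siQKI and 0.21 in siRBFOX2, beside 0.025 and 0.011 over all genes tested.

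LAMA5 (GSHG0027543, chr20:62309057-62367312), the alpha chain of the laminins found in most adult epithelial basement membranes, was at 45937, 48617 and 47729 normalized counts in the siCtrl libraries, 66666, 63147 and 63739 in siQKI and 56923, 53602 and 50155 in siRBFOX2 libraries. The siQKI libraries were highest and the siCtrl libraries lowest, without overlap. LAMA5 was 1.36-fold higher in siQKI (log2 fold change 0.44, SE 0.046, adjusted p = 2.84e-06) and 1.13-fold higher in siRBFOX2 (log2 fold change 0.17, SE 0.046, adjusted p = 0.0109), and siQKI was higher than siRBFOX2 (log2 fold change 0.27, SE 0.046, adjusted p = 0.000551). The rise in siRBFOX2 was lost under 2 alternatives (adjusted p = 0.084 without a mean-variance trend and 0.063 without siRBFOX2 replicate 1).

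LAMB2, the beta chain of laminins of the neuromuscular junction and the kidney filter, was at 4946, 5114 and 5275 normalized counts in the siCtrl libraries, 7462, 7311 and 7387 in siQKI and 7019, 6711 and 6099 in siRBFOX2 libraries. Both knockdowns lay above siCtrl (log2 fold change 0.53, SE 0.059, adjusted p = 5.57e-06 in siQKI, and log2 fold change 0.37, SE 0.059, adjusted p = 0.000278 in siRBFOX2), and the contrast between them did not pass (0.16, adjusted p = 0.0638), except after upper-quartile rescaling or without siRBFOX2 replicate 1 (adjusted p between 0.0256 and 0.0352, higher in siQKI). Its TGCATG, shown above, starts 43 bases after the stop codon. LAMC3, a gamma chain of few tissues, was at 2082, 2117 and 1914 normalized counts in the siCtrl libraries, 2769, 2630.2 and 2681 in siQKI and 2641, 2376 and 2728 in siRBFOX2 libraries. It was higher in siQKI (log2 fold change 0.40, SE 0.079, adjusted p = 0.000918) and in siRBFOX2 (log2 fold change 0.34, SE 0.079, adjusted p = 0.00461), with no difference past the threshold between them (0.063, adjusted p = 0.648).

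LAMA3 and LAMB3, chains of a laminin that hemidesmosomes bind, went different ways. LAMA3 was at 1402, 1391 and 1198 normalized counts in the siCtrl libraries, 1772, 1729 and 1851 in siQKI and 2065, 2139 and 1994 in siRBFOX2 libraries, and both knockdowns lay above siCtrl (log2 fold change 0.43, SE 0.09, adjusted p = 0.00167 in siQKI, and log2 fold change 0.64, SE 0.09, adjusted p = 8.98e-05 in siRBFOX2). LAMB3 (GSHG0003536, chr1:209614870-209652466) was at 6340.2, 6205 and 8113 normalized counts in the siCtrl libraries, 3995, 4097 and 3719 in siQKI and 5434, 4749 and 5783 in siRBFOX2 libraries, and fell to 57.2% of siCtrl in siQKI (log2 fold change -0.80, SE 0.10, adjusted p = 1.24e-05) and to 77.3% in siRBFOX2 (log2 fold change -0.37, SE 0.10, adjusted p = 0.0102). All groups of LAMB3 were apart, with siQKI lowest (-0.43, adjusted p = 0.00421 against siRBFOX2). The call in siRBFOX2 was lost under 3 alternatives (adjusted p = 0.0848 without a mean-variance trend, 0.0521 without siCtrl replicate 3 and 0.053 without siRBFOX2 replicate 2), and that between the knockdowns under 1 (adjusted p = 0.0609 without a mean-variance trend).

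LAMA4 (GSHG0038306, chr6:112107931-112254711), an alpha chain typical of vessels and mesenchymal cells, was the single member called in opposite directions. It was at 7364, 7265 and 7935 normalized counts in the siCtrl libraries, 5501, 6651 and 6169 in siQKI and 8479, 8403 and 9226 in siRBFOX2 libraries, so that siQKI lay below and siRBFOX2 above all siCtrl libraries. LAMA4 was lower in siQKI (log2 fold change -0.30, SE 0.069, adjusted p = 0.00295) and higher in siRBFOX2 (log2 fold change 0.21, SE 0.069, adjusted p = 0.0346), and the contrast between them passed (log2 fold change -0.51, SE 0.069, adjusted p = 6.91e-05). The rise in siRBFOX2 was lost under 5 alternatives (adjusted p = 0.126 without a mean-variance trend, 0.096 without siCtrl replicate 1, 0.114 without siCtrl replicate 2, 0.0552 without siRBFOX2 replicate 1 and 0.13 without siRBFOX2 replicate 3), while the fall in siQKI and the contrast between the knockdowns were lost under none of them.

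LAMB4, a beta chain of low and restricted expression, had the largest fall in siQKI among members past the threshold. It was at 159, 159.9 and 292 normalized counts in the siCtrl libraries, 23.9, 51.5 and 37.7 in siQKI and 115, 187 and 191 in siRBFOX2 libraries, and the siQKI libraries lay below all others (log2 fold change -2.41, SE 0.40, adjusted p = 0.000254). In siRBFOX2 it did not pass (-0.28, adjusted p = 0.67), and siQKI was lower than siRBFOX2 (-2.12, adjusted p = 0.00127). Among the chains that most cell types share, LAMB1 was at 21412, 22108 and 23039 normalized counts in the siCtrl libraries, 20322, 21278 and 20694 in siQKI and 24213, 24032 and 23509.8 in siRBFOX2 libraries. LAMC1 was at 30607, 31039 and 33723 normalized counts in the siCtrl libraries, 29979, 30883 and 29350.3 in siQKI and 34215, 34256 and 35121 in siRBFOX2 libraries. Neither passed against siCtrl in either knockdown, but both were lower in siQKI than in siRBFOX2 (-0.20, adjusted p = 0.00207 for LAMB1 and -0.20, adjusted p = 0.00339 for LAMC1, as log2 fold changes). Both passed in siRBFOX2 as higher than siCtrl after upper-quartile rescaling or without siCtrl replicate 3 (adjusted p between 0.0151 and 0.0432 for LAMB1), and LAMC1 also with a pseudocount of 10 or a minimum mean of 50 (adjusted p between 0.0113 and 0.0487 over these 4). LAMA1 and LAMA2 passed in no contrast and had at most 305 and 418 normalized counts. Without siCtrl replicate 3 LAMA2 passed as lower in siQKI than in siCtrl (adjusted p = 0.0238) and, there and in a fit of only the groups compared, than in siRBFOX2 (adjusted p between 0.0274 and 0.0349).

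**Figure D3:**
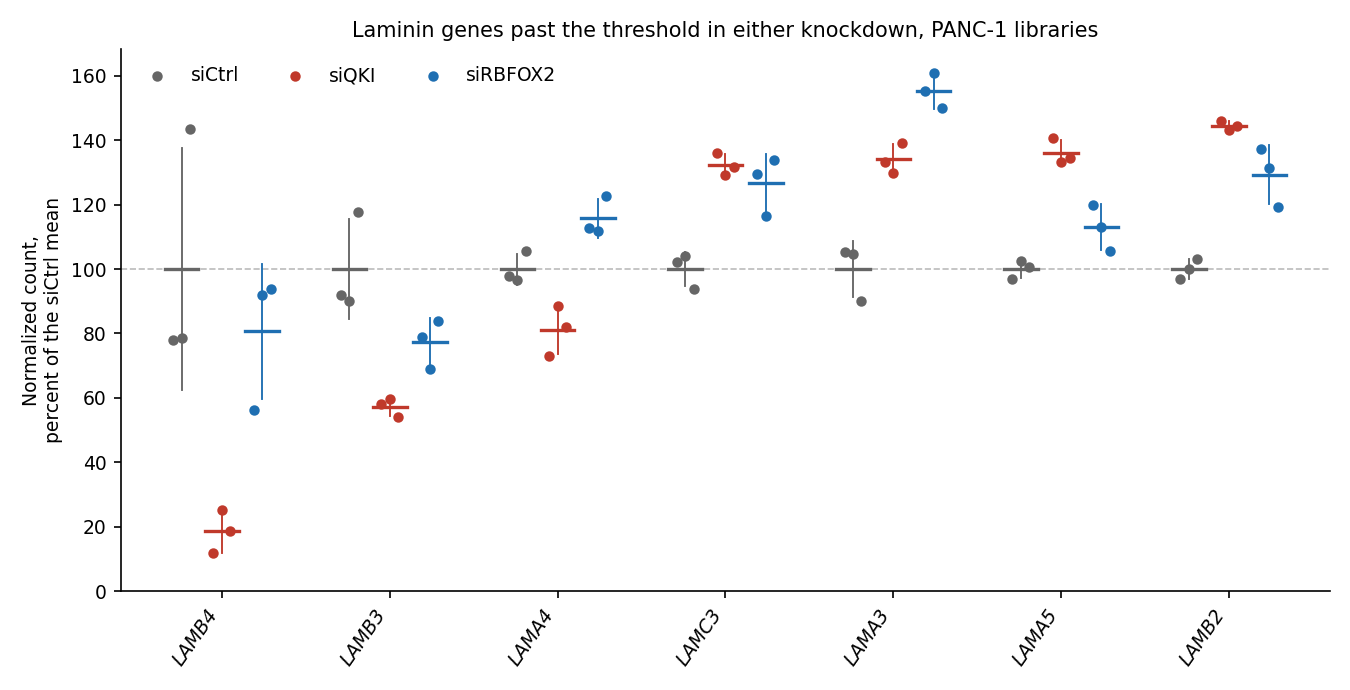
Normalized counts of the 7 laminin genes that passed in either knockdown, as a percentage of the siCtrl mean, in each PANC-1 library (points), with the group mean (horizontal bar) and SD (vertical bar), ordered by the fold change in siQKI. LAMB4 and LAMB3 lie lowest in siQKI, LAMA4 lies below 100% in siQKI and above it in siRBFOX2, and LAMA3, LAMA5, LAMB2 and LAMC3 lie above 100% in both.

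The direct contrast of siQKI with siRBFOX2 asks where the knockdowns differ from each other. Of the 35 members 22 passed, 10 higher and 12 lower in siQKI than in siRBFOX2, which is 62.9% beside 21.5% of all genes tested (9.93% higher and 11.6% lower), and among genes with a mean of at least 1000 it was 18 of 22 (81.8%) beside 37.1%. With a change of at least 1.5-fold 6 passed, beside 4.33% of all genes (2.09% higher and 2.24% lower), and these were ITGB8, ITGA2 and ITGB2 on the higher and ITGB6, LAMB4 and ITGAM on the lower side. The libraries were apart for 25 of the 35, beside 35.2% of all genes. Integrin subunits were 9 of the 10 members that were higher in siQKI, with LAMA5 as the other one, and laminin chains were 5 of the 12 that were lower. Of the 4 collagen-binding alpha subunits ITGA2 and ITGA10 were higher in siQKI than in siRBFOX2 and ITGA1 was lower. For ITGB3, LAMA3, LAMB2 and LAMC3, which were higher than siCtrl in both knockdowns, the contrast did not pass, with differences of 0.023, -0.21, 0.16 and 0.063 (log2) and SEs of 0.089, 0.09, 0.059 and 0.079.

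Of 26 integrin activators and adaptors on the inner face of the membrane 25 were tested, and 14 were lower and 5 higher in siQKI, against 9 lower and 4 higher in siRBFOX2 (median log2 fold changes -0.16 and -0.11). Over all genes tested 18.1% were lower and 14.9% higher in siQKI and 14.5% lower and 12% higher in siRBFOX2, with medians of 0.025 and 0.011. After upper-quartile rescaling 10 activators and adaptors were lower and 7 higher in siQKI, and without a mean-variance trend 9 were lower and 4 higher. In siRBFOX2 6 were lower and 4 higher without a mean-variance trend. There the call of PTK2 as lower was lost under 10 alternatives (adjusted p between 0.0503 and 0.132) and that of FERMT2 under 3 (adjusted p between 0.0526 and 0.0903). In siQKI TNS4, a tensin of epithelial cells, fell by 1.67 (log2, adjusted p = 0.014), APBB1IP, which brings Rap1 to talin, by 0.86 (adjusted p = 0.0155) and ILK, the scaffold that joins integrins to parvins, by 0.50 (adjusted p = 2.65e-07). LIMS2 (0.83, adjusted p = 0.00425), TNS3 (0.82, adjusted p = 8.54e-09) and TNS2 (0.45, adjusted p = 1.68e-05), an ILK partner and 2 tensins, rose most in siQKI (log2 fold changes). In siRBFOX2 FERMT3 (-0.78, adjusted p = 0.0191), LIMS1 (-0.26, adjusted p = 0.0013) and RAP1A (-0.26, adjusted p = 0.00111) fell most (log2 fold changes). LIMS2 (0.86, adjusted p = 0.00467), TNS3 (0.73, adjusted p = 6.97e-08) and FERMT1 (0.72, adjusted p = 0.0226) rose most there. Without a mean-variance trend TNS4 (adjusted p = 0.0612) and APBB1IP (0.0832) in siQKI and FERMT3 (0.0969) in siRBFOX2 did not pass. The calls of TNS4 (adjusted p = 0.0688 without siQKI replicate 3) and APBB1IP (adjusted p = 0.0637 without siCtrl replicate 2, 0.0541 without siCtrl replicate 3 and 0.0735 without siQKI replicate 1) in siQKI and of FERMT3 (adjusted p = 0.0941 without siCtrl replicate 2, 0.0797 without siRBFOX2 replicate 2 and 0.0718 without siRBFOX2 replicate 3) and FERMT1 (adjusted p = 0.0638 without siCtrl replicate 1, 0.0509 without siCtrl replicate 2, 0.0944 without siRBFOX2 replicate 2 and 0.0729 without siRBFOX2 replicate 3) in siRBFOX2 were lost when a library was left out.

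Of 7 genes in a further list of regulators of integrin activation, KRIT1 (-0.23, adjusted p = 0.003), ITGB1BP1 (-0.22, adjusted p = 0.00306) and FLNA (-0.10, adjusted p = 0.0363) were lower in siQKI (log2 fold changes). SLC3A2, the CD98 heavy chain, which is known to support integrin signaling, was higher there (0.28, adjusted p = 0.0145). Over all genes 18.1% were lower and 14.9% higher in siQKI. FLNA alone passed in siRBFOX2, where it was higher (0.10, adjusted p = 0.0447), beside 12% of all genes higher and 14.5% lower. The call of SLC3A2 was lost under 2 alternatives (adjusted p = 0.0776 without siCtrl replicate 1 and 0.116 without a mean-variance trend). That of FLNA in siQKI was lost under 9 (adjusted p between 0.0527 and 0.375), among them 5 left-out libraries and upper-quartile rescaling. In siRBFOX2 the call of FLNA was lost under 12 (adjusted p between 0.0526 and 0.171), among them 7 left-out libraries.

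The partners of laminins in the basement membrane rose where they passed. Of 12 such genes 10 were tested, 7 were higher in siQKI and 5 in siRBFOX2, and none was lower, beside 14.9% and 12% of all genes higher (median log2 fold changes 0.27 and 0.20). The largest rises in siQKI were those of the collagen IV chains COL4A2 (0.68, adjusted p = 3.67e-06) and COL4A5 (0.51, adjusted p = 0.00165) and of BCAM, a receptor for LAMA5 (0.48, adjusted p = 0.000605). The rise of NID1, nidogen, in siQKI (0.17, adjusted p = 0.0425) was lost under 8 alternatives (adjusted p between 0.0528 and 0.15: without a minimum, without a mean-variance trend and without any 1 of the siCtrl or siQKI libraries), which left 6 genes. In siRBFOX2 COL4A5 (0.76, adjusted p = 8.91e-05), COL4A2 (0.58, adjusted p = 3.53e-05) and COL4A1 (0.57, adjusted p = 6.13e-06) rose most. The rise of DAG1 in siRBFOX2 was lost under 4 alternatives (adjusted p between 0.0643 and 0.106), and over the alternatives 4 to 6 of these partners were higher there. Of 8 hemidesmosome and tetraspanin partners 2 were higher and 3 lower in siQKI, beside 14.9% and 18.1% of all genes, where CD82 (-0.97, adjusted p = 1.92e-07), the hemidesmosomal collagen COL17A1 (-1.13, adjusted p = 0.00954) and CD9 (-0.28, adjusted p = 0.000275) fell and CD81 (0.23, adjusted p = 0.00149) and CD151 (0.13, adjusted p = 0.0254) rose. In siRBFOX2 CD82 (-0.89, adjusted p = 9.81e-07) and CD9 (-0.23, adjusted p = 0.00191) fell and TSPAN8 (1.47, adjusted p = 0.0216) rose. Over all genes 14.5% were lower and 12% higher in siRBFOX2. Without a mean-variance trend COL17A1 (adjusted p = 0.0602) and CD151 (0.109) in siQKI and TSPAN8 (0.111) in siRBFOX2 did not pass. Leaving out a library ended the calls of COL17A1 (adjusted p = 0.0513 without siQKI replicate 3) and CD151 (adjusted p = 0.0884 without siCtrl replicate 1, 0.0624 without siCtrl replicate 3, 0.0914 without siQKI replicate 1 and 0.0592 without siQKI replicate 3) in siQKI and of TSPAN8 (adjusted p = 0.1 without siCtrl replicate 2, 0.0872 without siRBFOX2 replicate 1 and 0.096 without siRBFOX2 replicate 2) in siRBFOX2.

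Of 14 other integrin ligands 11 were tested, and 5 were higher and 2 lower in siQKI against 4 higher and 2 lower in siRBFOX2, beside 14.9% higher and 18.1% lower of all genes in siQKI and 12% and 14.5% in siRBFOX2. The share that was lower thus lay near that of all genes, and without a mean-variance trend 3 were higher in siQKI and 3 in siRBFOX2. THBS1, thrombospondin-1, rose in both (1.53, adjusted p = 5.5e-10 in siQKI and 1.91, adjusted p = 1.1e-10 in siRBFOX2, as log2 fold changes), and CCN2 (-0.51, adjusted p = 3.71e-06 and -0.90, adjusted p = 2.8e-08) and CCN1 (-0.38, adjusted p = 1.68e-05 and -0.50, adjusted p = 2.41e-06), matricellular ligands of several integrins, fell in both. CDH1, E-cadherin, rose in both (1.39, adjusted p = 1.54e-07 and 0.53, adjusted p = 0.00177). Of the 6 epithelial markers, CDH1 was the only 1 higher in either knockdown, while 2 were lower in siQKI and 4 in siRBFOX2. VTN, vitronectin, rose in siQKI (1.56, adjusted p = 0.00701), a call lost without a mean-variance trend (adjusted p = 0.0506). TGFB1, whose latent form binds ITGAV receptors, was higher in both (0.20, adjusted p = 0.00598 and 0.22, adjusted p = 0.0038). FBN1 was higher in siRBFOX2 (log2 fold change 0.40), a call lost under 12 alternatives (adjusted p between 0.0502 and 0.199). FN1, fibronectin, averaged 136 ± 100.1 normalized counts (SD, n = 3) in siCtrl and passed in neither.

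The tables of HPAF-II and PANC-1 were normalized apart, so the control libraries of both lines are compared as values rescaled to a total of 1000000 per library, without a test. Of the 35 members whose normalized counts averaged 10 or more in one of the lines, 23 (65.7%) differed at least 2-fold, beside 52.4% of all genes compared. Of these 8 were higher in HPAF-II, beside 27.2% of all genes, and 15 in PANC-1, beside 25.2%. For 25 members no library of a line reached those of the other, beside 63.7% of all genes, and 21 met both criteria (60%, beside 42.7%), 8 of them higher in HPAF-II and 13 in PANC-1. ITGA11 and ITGAD differed at least 2-fold with libraries that overlapped. HPAF-II replicate 3 stood farther from the other 2 libraries (median absolute log2 difference of 0.48 and 0.54 over genes) than these from each other (0.25), and without it 23 members differed at least 2-fold, with ITGB5 in place of ITGA7. Without PANC-1 replicate 3 ITGA7 and ITGAD were not among them, without PANC-1 replicate 2 ITGA11 was too low to be compared, and LAMB2 or ITGAL joined them without HPAF-II replicate 2 or PANC-1 replicate 1.

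ITGB4, LAMA3 and LAMB3 were far higher in HPAF-II. ITGB4 was at 1458, 1551 and 1590.5 rescaled counts in the HPAF-II libraries and 21.4, 21.3 and 18.2 in the PANC-1 libraries (log2 ratio 6.24), while its partner ITGA6 overlapped between the lines, at 225, 268 and 169 rescaled counts in the HPAF-II libraries and 195, 188 and 206 in the PANC-1 libraries. LAMA3 was at 96.6, 114 and 72.0 rescaled counts in the HPAF-II libraries and 4.14, 3.996 and 3.47 in the PANC-1 libraries (log2 ratio 4.6). LAMB3 was at 256, 333 and 337 rescaled counts in the HPAF-II libraries and 18.7, 17.8 and 23.5 in the PANC-1 libraries (log2 ratio 3.95). For ITGB4, LAMA3 and LAMB3 every HPAF-II library lay above every PANC-1 library. ITGB6 was at 25.7, 29.3 and 21.8 rescaled counts in the HPAF-II libraries and 0.288, 0.129 and 0.175 in the PANC-1 libraries (log2 ratio 6.95). ITGB7 (2.53), LAMA2 (1.66), ITGA1 (1.22) and ITGA7 (1.04) were the other members higher in HPAF-II (log2 ratios). ITGA1 and ITGA7 lay under 2-fold with the deposited values without rescaling, under which ITGA3, ITGB5 and LAMB2 were at least 2-fold higher in PANC-1.

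ITGA5, ITGB3 and ITGAV, subunits of receptors for fibronectin and vitronectin, were higher in PANC-1. ITGA5 was at 0.684, 0.634 and 1.15 rescaled counts in the HPAF-II libraries and 114, 114 and 125 in the PANC-1 libraries (log2 ratio -7.14). ITGB3 was listed at 0 in 2 HPAF-II libraries and at 0.0439 in the third, against 9.34, 7.36 and 8.26 rescaled counts in PANC-1. LAMC3 was likewise listed at 0 in 2 HPAF-II libraries and at 0.00323 in the third, against 6.15, 6.08 and 5.54. No ratio is given for these 2, nor for LAMA1 (0 in 2 and 0.0265 in the remaining HPAF-II library, at most 0.702 in PANC-1) and ITGA2B (0 in 1 and at most 0.426 in the remaining HPAF-II libraries, 0.863 to 1.02 in PANC-1). ITGBL1 (log2 ratio -6.38), ITGAM (-5.86), LAMA4 (-3.11), ITGAX (-2.82), LAMB4 (-2.13), ITGA10 (-2.07), ITGAV (-1.62) and ITGAE (-1.17) were higher in PANC-1 too. In the HPAF-II libraries ITGAM was at 0.0176 to 0.0291 and ITGAX at 0.0265 to 0.0598 rescaled counts. These lie near the added 0.01, so the size of both ratios depends on it.

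The other 12 members differed by less than 2-fold. ITGA2 was at 154, 199 and 144 rescaled counts in the HPAF-II libraries and 146, 141 and 163 in the PANC-1 libraries, and its libraries overlapped (log2 ratio 0.14). LAMB1 (0.20), LAMC1 (0.35), ITGB2 (0.19) and ITGB8 (-0.26) overlapped as well, as did the scarce ITGAL, and ITGB1 (0.80), ITGA3 (-0.76), ITGB5 (-0.97) and LAMB2 (-0.93) were apart by less than 2-fold (log2 ratios). LAMA5 was at 73.5, 75.8 and 187 rescaled counts in the HPAF-II libraries and 136, 139.6 and 138 in the PANC-1 libraries (log2 ratio -0.30), so that HPAF-II replicate 3 lay above and the other HPAF-II libraries lay below all PANC-1 libraries.

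**Figure D4:**
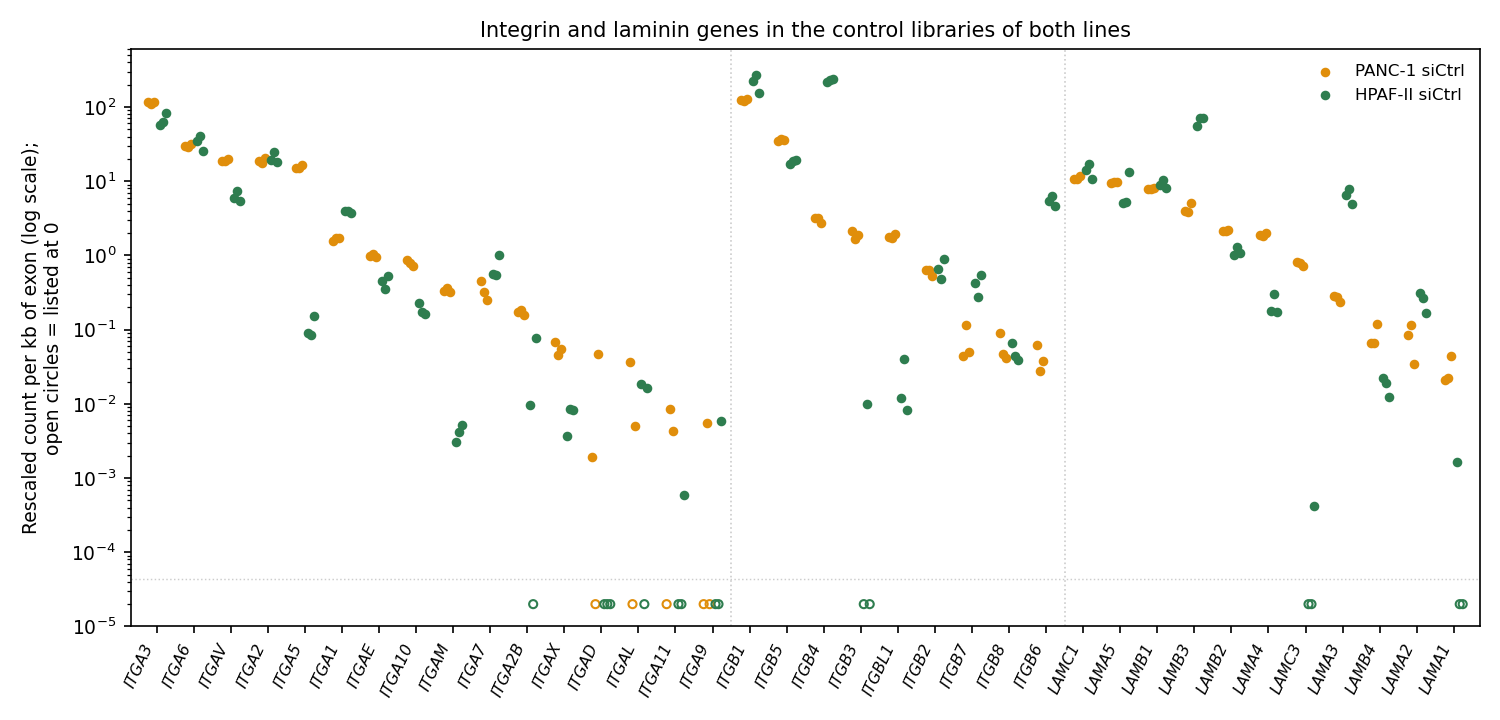
Rescaled counts per kb of exon, on a log scale, of 36 members in the 3 PANC-1 (orange) and 3 HPAF-II (green) siCtrl libraries, each point a library and open circles at the bottom a library listed at 0 (ITGA4 and ITGA8, at 0 in all 6, are left out). Alpha subunits, beta subunits with ITGBL1, and laminins stand from left to right, each ordered by the PANC-1 level, and ITGB4, ITGB6, LAMA3 and LAMB3 lie higher in HPAF-II while ITGA5, ITGB3 and LAMC3 lie higher in PANC-1.

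Levels of different genes were set side by side per kb of exon, since longer transcripts give more reads. The length was that of all exons in the GENCODE models of a gene together, not of the transcript that the cells express. SDs and overlaps reflect the libraries alone, so the order or match of close levels depends on these lengths. In PANC-1 siCtrl libraries the order of alpha subunits was ITGA3 (114 ± 3.05 rescaled counts per kb, SD, n = 3), ITGA6 (30.05 ± 1.37), ITGAV (19.1 ± 0.547), ITGA2 (19.0 ± 1.48) and ITGA5 (15.5 ± 0.832), and ITGAV and ITGA2 overlapped while the other neighbors did not. ITGA3 made up 56.5% of the summed level per kb of the 18 alpha subunits. In HPAF-II the order was ITGA3 (67.7 ± 13.8), ITGA6 (33.7 ± 7.60), ITGA2 (21.0 ± 3.67) and ITGAV (6.19 ± 1.03), all apart, and ITGA5 stood at 0.109 ± 0.0375.

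Among beta subunits of PANC-1 ITGB1 (124 ± 4.802) stood above ITGB5 (36.0 ± 0.824), ITGB4 (3.00 ± 0.267) and ITGB3 (1.89 ± 0.225), all apart (rescaled counts per kb). In HPAF-II ITGB4 (227 ± 10.1) and ITGB1 (217 ± 57.7) overlapped at the top, followed by ITGB5 (18.3 ± 0.965) and ITGB6 (5.46 ± 0.793). ITGB4 thus took 48.4% of the summed level per kb of beta subunits in HPAF-II and 1.81% in PANC-1. Among laminins LAMC1 (11.0 ± 0.549), LAMA5 (9.64 ± 0.144) and LAMB1 (7.92 ± 0.241) led in PANC-1, apart from each other, and LAMB3 (65.9 ± 9.73) led in HPAF-II.

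The match between chains of known complexes differed by complex and by line at the RNA level. In PANC-1 the chains of laminin-511, LAMA5, LAMB1 and LAMC1, lay within 1.39-fold of each other per kb, and LAMA3 stood at 0.264 and LAMB3 at 4.27 rescaled counts per kb. In HPAF-II LAMA3 stood at 6.41 rescaled counts per kb. For alpha6beta4, ITGA6 was 10.0-fold above ITGB4 in PANC-1, and ITGB4 was 6.72-fold above ITGA6 in HPAF-II. ITGA3 and ITGB1 lay within 1.09-fold in PANC-1 and ITGB1 was 3.21-fold above ITGA3 in HPAF-II. ITGAV and ITGB6 lay within 1.13-fold in HPAF-II, while in PANC-1 ITGAV was 453-fold above ITGB6. These ratios compare messenger RNA only and depend on the exon lengths from GENCODE, so a close match does not show equal numbers of transcripts. They do not give amounts of protein or of assembled complexes.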

How the data were processed

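Gene expression was measured by RNA sequencing of polyadenylated RNA in 12 libraries, 3 for each of 4 groups. The authors aligned reads to hg38 with STAR 2.7.5a, per the submitters' processing notes, counted them per FAST DB gene and divided by DESeq2 size factors, so the deposited values are a coverage-like signal, called normalized counts. The software list of the study names featureCounts and a later version of STAR without tying either to these tables, and the strand setting is not given in the sources used here. Every value is a whole multiple of 1 step per library, but most low values are multiples of 3 steps, so reads could not be recovered, depth in reads is unknown, and no count model was used.

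Log2(normalized count + 1) of genes with a mean of at least 10 (22544 of 48114) was fitted in limma 3.58.1 (R 4.3.3) with a mean-variance trend, in 1 fit of the 9 PANC-1 libraries, with Benjamini-Hochberg adjustment over all genes tested and a threshold of 0.05. The script was checked on simulated data. The lines, normalized apart, were compared without a test, as values rescaled to a total of 1000000 per library, by the log2 ratio of group means with 0.01 added. The added constants shrink ratios of low group means between the lines. The fit compares means of logarithms, so for scarce genes libraries at or near 0 can move a fold change either way. ITGAL in siQKI had a log2 fold change of 0.70 while its mean was 83.2% of siCtrl. Exonic length, overlap of gene models and untranslated regions came from GENCODE release 29, while the authors counted per FAST DB gene. Same-numbered libraries of the PANC-1 groups did not deviate together (r between -0.032 and 0.023), so numbers were not used as pairs.

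Of the 39 genes that the rule finds, 1 is not reported here, and all counts of members leave it out. Every other member was accounted for, and of each list of related genes up to 3 genes per direction with the largest change past the threshold were named, beside some others. The members, lists and named genes were chosen with earlier results of these data known.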

Additional observations from a re-analysis of the deposited data

How the results depend on the processing

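Under 17 other settings (pseudocounts of 0.1 and 10, no minimum or a minimum of 50, upper-quartile rescaling, a fit of only the groups compared, the replicate block, no mean-variance trend, and each of the 9 libraries left out in turn), 16 of the 19 members called in siQKI, 9 of the 13 in siRBFOX2 and 17 of the 22 between the knockdowns stayed past the threshold in every setting, and none changed direction. With a change of at least 1.5-fold required in addition, 7, 3 and 6 members passed, because the rule is stricter. Leaving out a library gave 16 to 21 members in siQKI, 10 to 16 in siRBFOX2 and 20 to 23 between the knockdowns, a log2 fold change of QKI in siQKI from -2.40 to -2.29 and of RBFOX2 in siRBFOX2 from -3.00 to -2.76, and 21 to 24 members at least 2-fold apart between the lines. With the replicate block 21, 14 and 22 members passed, the same 19, 13 and 22 calls were kept, and ITGA11 and ITGB4 joined them in siQKI and ITGB4 in siRBFOX2. Between the lines, a pseudocount of 1 left 14 of the 23 members, since it shrinks ratios of low values. ITGA11, ITGA2B, ITGA7, ITGAD, ITGAE, ITGAX, LAMA1, LAMA2 and LAMB4 were lost. Without rescaling the median log2 ratio of all genes moved from 0.08 to -0.19, and 6 members were then higher in HPAF-II and 18 in PANC-1, with ITGA3, ITGB5 and LAMB2 gained and ITGA1 and ITGA7 lost. The planned count-model alternatives were not run, because a step is not a read. Precision is limited by 3 libraries per group, and the SE of the log2 fold change ranged from 0.036 to 1.54 over the members, largest for those with the fewest counts.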
